A study of Mus musculus with 4 samples.

Results

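Tumors grown in *Sipa1*-/- hosts gave a sort of mesenchymal stroma cells (MSCs) and a sort of CD8+ T cells, whose RNA was compared gene by gene. The comparison took the arrays labelled tumor MSCs and tumor CD8 T cells of *Sipa1* KO hosts, which are 2 of the 4 arrays of the series, and it covered 16624 genes. The series holds 1 array of each sort from Wt hosts and 1 of each from *Sipa1*-/- hosts, all 1-colour Agilent expression arrays on 1 slide with 1 scan time. Hosts were Wt and *Sipa1*-/- mice of the strain C57BL/6Ncr at 8 weeks of age, which received 15000 GFP+ *Bcr-abl*+ hematopoietic progenitor cells in Matrigel under the skin, and tumors were taken on day 12. MSCs were the cells without GFP, CD45, Ter119 and CD31, and CD8+ T cells were those without GFP that carried TCRb and CD8. The MSC gate is thus made of absent markers alone, and no mesenchymal marker was used in it. The design names 5 mice for each genotype, and the labels do not say whether their cells were pooled. With 1 array for each group no difference has a replicate check, and the number of arrays limits the precision.

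Stromal cells of connective tissue build the extracellular matrix, make collagens, proteoglycans and the enzymes that process them, and release growth factors and chemokines. CD8+ T cells recognize antigen through the T-cell receptor with its CD3 chains and coreceptor, and kill target cells with perforin and granzymes. Sipa1 is a GTPase-activating protein that turns off Rap1, a switch for integrin adhesion.

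A level here is the log2 signal of a gene minus the 75th percentile of its array, so that 0 is the level of that percentile, and a difference is the level in MSCs minus that in CD8+ T cells. *Sipa1* itself was at 2.62 in *Sipa1*-/- MSCs and at 2.56 in *Sipa1*-/- CD8+ T cells. On the Wt arrays it was at 4.04 in MSCs and at 4.42 in CD8+ T cells. Its signal in *Sipa1*-/- hosts was thus reduced in either sort and nearly equal between the sorts, and each of the 2 probes stayed well above background. Where the probes lie relative to the deleted part of the gene is not stated.

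Of the 16624 genes, 4245 (25.5%) were at least 2-fold higher in MSCs and 3028 (18.2%) at least 2-fold lower. At least 8-fold, 1754 (10.6%) were higher and 588 (3.54%) lower. The list counts below are to be read beside these shares of all genes. With normexp background correction the 2-fold counts were 2790 higher and 1933 lower, and the 8-fold counts also fell. The median difference of all genes was -0.07. On the CD8+ T array 1726 genes were not well above background, and on the MSC array 468. For such a gene the dim side was set to the higher of its own signal and the lowest signal among probes well above background, and the fold is a bound given as "at least". A gene with several probes was treated so only where every probe was dim, and its mean can hold a dim probe, so the levels of such genes are given from the probes well above background on both arrays. The split of the 2-fold calls depended on the scaling, and 58.4% of them were higher in MSCs, against 48.1% after a shift by the array median and 78.1% with the deposited series matrix values. These scalings moved the gene differences by a median of -0.22 and 0.53. For 293 probes printed at least 10 times, the median SD of the difference between spots was 0.03. For 5026 genes with several probes, its median SD between probes was 0.21.

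Stromal and T-cell lists differed in opposite directions. Their members were chosen with earlier results of these data known, so the counts describe the lists and are no test. Over 9 lists of stromal genes, 176 of 190 measured members (92.6%) were at least 2-fold higher in MSCs and 4 were lower. Their median difference was 4.75, and 25.5% of all genes were higher. Over 6 lists of T-cell genes, 106 of 114 measured members (93.0%) were at least 2-fold lower in MSCs and 2 were higher. Their median was -4.99, and 18.2% of all genes were lower. A lower level in bulk RNA does not tell fewer cells of a type from less RNA per cell.

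**Figure D1:**
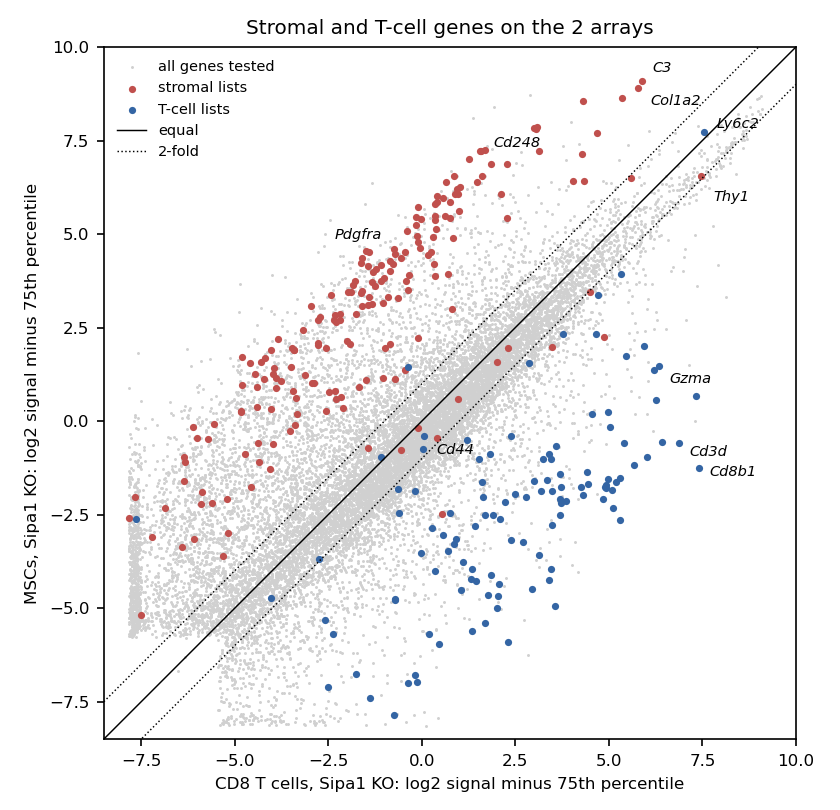
Level of each of the 16624 genes in *Sipa1*-/- CD8+ T cells (x axis) and *Sipa1*-/- MSCs (y axis), in log2 signal minus the 75th percentile of the array, 1 array each. Genes of the stromal lists are red and lie mostly above the 2-fold line, and genes of the T-cell lists are blue and lie mostly below it, with *Thy1*, *Ly6c2* and *Cd44* near the line of equal signal.

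Surface molecules that are used to define mesenchymal cells were divided. Of 22 measured, 15 were at least 2-fold higher in MSCs and 2 lower, with a median of 3.48. *Pdgfra*, a receptor for platelet-derived growth factor, was at 4.52 in MSCs and at -0.44 in CD8+ T cells, a 31.2-fold difference. Its relative *Pdgfrb* was at 3.76 and -1.09. *Pdpn*, which encodes podoplanin, was at 5.48 and 0.34. The largest differences in the list were those of *Cd248* (endosialin), at 7.22 and 1.59, and of *Fap* (fibroblast activation protein), at 4.15 and -1.43. For these receptors and fibroblast antigens the T-cell signal was far below that of MSCs. Other members of the list differed less or not at all. *Thy1* was at 6.55 in MSCs and at 7.46 in CD8+ T cells, and *Icam1* at -0.17 and -0.11. The cadherin gene *Cdh11*, chosen after its values were seen, differed by -0.36 on each of its 2 probes. *Ly6a*, which encodes Sca-1, was 4.26-fold higher in MSCs, at 6.41 against 4.32. The 2 members at least 2-fold lower in MSCs were *Alcam*, at -2.49 and 0.53, and *Mcam*, at 3.45 and 4.50.

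Transcription factors of the mesenchyme were higher in MSCs for 26 of 28 measured members, with a median difference of 4.52. *Prrx1* was at 3.45 in MSCs and at -1.89 in CD8+ T cells. *Snai2*, a zinc-finger repressor of epithelial genes, was at 1.68 and -4.19, and its relative *Snai1* at 1.95 and -2.55. *Twist1* and *Twist2* had differences of 5.10 and 5.45. The probe of *Osr2* that was above background on both arrays was at 3.44 in MSCs and at -2.74 in CD8+ T cells. *Zeb1* was the closest to equal among members measured on both arrays, at -0.72 and -1.43. The patterning genes of the Hox clusters went with these factors, and 24 of 27 measured were at least 2-fold higher in MSCs and 0 lower, with a median of 2.84 that lay between 0.94 and 4.48 over the alternatives. *Hoxc8* was at 1.68 in MSCs and at -4.20 in CD8+ T cells, and *Hoxc9* at 2.42 and -2.71. Of these Hox genes, 15 were above background on the CD8+ T array.

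All 20 collagens measured were at least 2-fold higher in MSCs, with a median of 4.73. Some fibrillar collagens were also well above background in the CD8+ T sort. *Col1a2* was at 8.91 in MSCs and at 5.77 in CD8+ T cells, *Col3a1* at 7.70 and 4.68, and *Col1a1* at 7.15 and 4.29. These differences, from 2.86 for *Col1a1* to 3.14 for *Col1a2*, were below the list median, with signal far above background in both sorts. The genes of type V collagen, another fibrillar collagen, stood further apart. *Col5a2* was at 3.08 in MSCs and at -2.95 in CD8+ T cells, and *Col5a1* at 7.22 and 1.56.

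Proteoglycans and matrix glycoproteins were at least 2-fold higher in MSCs for 28 of 28 measured members, with a median of 5.25. *Dcn*, which encodes the collagen-binding proteoglycan decorin, was at 8.57 in MSCs and at 4.31 in CD8+ T cells. *Lum* (lumican) was at 6.54 and 0.85, and *Postn* (periostin) at 6.38 and 0.66. *Sparc* was at 8.64 and 5.35, again with signal far above background in both sorts. *Aspn* had the largest difference, 6.05, and *Thbs1* the smallest, 2.58.

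The enzymes that process collagen were higher for 17 of 17 measured members, with a median of 4.90. *Lox*, which cross-links collagen, was at 5.44 in MSCs and at -0.15 in CD8+ T cells. *Serpinh1*, the collagen chaperone of the endoplasmic reticulum, was at 6.26 and 1.02. *Pcolce*, an enhancer of procollagen cleavage, differed by 4.84. Matrix proteases and their inhibitors were higher for 16 of 16, with a median of 5.05. *Mmp2*, a gelatinase, was at 6.01 in MSCs and at 0.41 in CD8+ T cells. *Timp1*, an inhibitor of such proteases, was at 6.89 and 2.28. The medians of the matrix, processing and protease lists thus lay between 4.73 for collagens and 5.25 for proteoglycans and matrix glycoproteins. Single genes lay further apart, and no test compared the lists.

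Stromal growth factors and their receptors were higher for 34 of 34 measured members, with a median of 4.38. *Fgf7*, a growth factor for epithelia, was at 1.91 in MSCs and at -3.41 in CD8+ T cells. *Igf1* was at 3.14 and -1.02. *Fgfr1*, a receptor for fibroblast growth factors, differed by 4.92 and 4.83 for its 2 probes above background on both arrays. *Sfrp2*, a Wnt-binding secreted protein, had the largest difference, at 4.54 and -1.50. *Tgfbr2*, a receptor for TGF-β that T cells use as well, was at 6.41 and 4.05. Complement genes made by fibroblasts were higher for 10 of 10, with a median of 4.79. *C3*, the central complement component, had signal far above background in both sorts and differed by 3.21, and *C1s1*, a protease of the classical pathway, was at 6.86 and 1.85.

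Contractile genes had the lowest median difference of the stromal lists and, like the surface molecules, were divided. Of 15 measured, 10 were higher in MSCs and 2 lower, with a median of 2.19. *Tagln* was at 3.93 in MSCs and at 0.71 in CD8+ T cells, and *Myl9* at 4.20 and 0.33. *Tpm2*, by its probe above background on both arrays, was at 3.28 and -1.49. The 2 lower members were *Cnn2*, at 2.26 and 4.86, and *Actg2*, at 1.99 and 3.48. *Acta2*, which encodes smooth muscle actin, had 3 probes that disagreed, with differences of -0.73, 3.76 and 3.95, the last not well above background in CD8+ T cells. The probe with the highest signal was the one that put it lower in MSCs.

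The promoters of contractile genes were searched for the CArG box, the site letters of serum response factor (CC, then A or T at each place up to GG, 10 letters in all). RefSeq promoters (GRCm38.p6, 300 bases, both strands) were found for 13 of the 16 genes of the list. The box was in those of 2 of these, *Cnn2* and *Myl9* (15.4%), against 1.81% of all 27025 genes. The list is small, and the 2 genes differed in opposite directions between the sorts. The promoter of *Myl9* is shown because the gene was among those higher in MSCs. It lies at chr2:156775214-156775513 on the + strand of GRCm38.p6, and capitals mark the box.
Myl9: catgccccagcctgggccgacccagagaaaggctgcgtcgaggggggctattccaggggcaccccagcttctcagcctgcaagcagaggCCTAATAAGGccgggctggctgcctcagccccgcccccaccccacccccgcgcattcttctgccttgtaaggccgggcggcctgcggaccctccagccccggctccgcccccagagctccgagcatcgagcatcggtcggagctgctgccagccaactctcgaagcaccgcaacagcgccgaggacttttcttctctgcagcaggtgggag

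Genes of the T-cell receptor complex were at least 2-fold lower in MSCs for 14 of 14 measured members, with a median of -6.90. *Cd8b1*, a chain of the CD8 coreceptor on which the sort rests, was at -1.26 in MSCs and at 7.41 in CD8+ T cells, a 407-fold difference. *Cd8a*, by its probe above background on both arrays, was at -4.17 and 4.17. The CD3 chains were alike, with *Cd3g* at -2.64 and 5.29, *Cd3d* at -0.60 and 6.88, and *Cd3e* at -1.97 and 4.31. *Cd247*, the zeta chain, had 3 probes that disagreed in size, with differences of -2.66, -1.24 and -6.99, the last of them not well above background in MSCs. *Cd2*, an adhesion receptor, was at 0.56 and 6.25. On the MSC array 13 of the 14 were above background, so RNA of T-cell genes was measured there.

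Proximal signaling molecules of the T-cell receptor were lower in MSCs for 23 of 23, each at least 8-fold, with a median of -5.77. The kinase gene *Lck* was at -1.75 in MSCs and at 4.91 in CD8+ T cells, and *Zap70* at -1.53 and 5.29. The adaptor gene *Lat* was at -1.78 and 4.93. *Vav1*, which many blood cells use, stood closest together, at 1.73 and 5.45.

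The promoters of these 2 lists were searched for AGGAAG, a core of ETS factor sites, and TGTGGT, a core of RUNX factor sites, on both strands. Promoters were found for 8 of 14 genes of the receptor complex and for 16 of 23 signaling genes. AGGAAG was in those of 4 of the 8 receptor genes and 9 of the 16 signaling genes (56.2%), against 38.4% of all genes. TGTGGT was in those of 1 receptor gene (12.5%) and 7 signaling genes (43.8%), against 18.9% of all genes. The promoters of *Cd3e* and *Cd3d* are shown because both genes mark the sort and hold AGGAAG. They lie at chr9:45009562-45009861 on the - strand and at chr9:44981536-44981835 on the + strand of GRCm38.p6, and capitals mark AGGAAG or its reverse complement.
Cd3e: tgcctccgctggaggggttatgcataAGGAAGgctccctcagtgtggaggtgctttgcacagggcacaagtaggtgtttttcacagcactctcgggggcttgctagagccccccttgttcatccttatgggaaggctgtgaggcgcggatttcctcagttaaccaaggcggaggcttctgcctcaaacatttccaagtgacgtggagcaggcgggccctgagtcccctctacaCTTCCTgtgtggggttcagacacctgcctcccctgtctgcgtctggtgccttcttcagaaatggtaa
Cd3d: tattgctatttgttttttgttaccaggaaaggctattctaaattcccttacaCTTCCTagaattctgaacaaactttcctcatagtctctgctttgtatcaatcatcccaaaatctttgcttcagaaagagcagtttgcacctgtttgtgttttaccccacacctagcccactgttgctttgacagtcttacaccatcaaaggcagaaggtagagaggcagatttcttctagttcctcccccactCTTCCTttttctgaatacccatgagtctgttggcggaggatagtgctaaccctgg

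Transcription factors of T cells were lower in MSCs for 21 of 23 measured members, with a median of -4.18. *Tcf7*, a factor of naive and memory T cells, was at -3.83 in MSCs and at 3.25 in CD8+ T cells by its probe above background on both arrays. The effector factor gene *Tbx21* was at -2.52 and 3.69, and *Eomes*, by its probe above background on both arrays, at -4.42 and 3.24. *Runx3*, needed for the CD8 lineage, was at -3.47 and 0.71. *Runx1* was the 1 member at least 2-fold higher in MSCs, at 1.43 and -0.37. *Bcl11a* was level, at -0.97 and -1.10. The last 2 are not restricted to T cells, and what part this had in their levels was not tested.

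Cytotoxic effectors were lower in MSCs for 16 of 18 measured members, with a median of -5.81. *Nkg7*, a protein of cytotoxic granules, was at 0.67 in MSCs and at 7.33 in CD8+ T cells. *Gzmb* was at -1.63 and 5.19, and *Prf1*, the perforin gene, at -2.03 and 2.78. *Ifng*, the gene of interferon-γ, was at -2.09 and 4.85. *Gzma*, another granzyme gene, was at 1.47 and 6.34. *Srgn*, the core protein of granule proteoglycan that many blood and stromal cells make, was at 3.93 and 5.32. *Gzme* was higher in MSCs, by at least 7.31-fold, with a level of -2.62 there and a signal not well above background in CD8+ T cells.

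Inhibitory and costimulatory receptors were lower in MSCs for 14 of 15, with a median of -4.47. *Pdcd1*, which encodes PD-1, was at -3.58 in MSCs and at 3.13 in CD8+ T cells. *Havcr2* was at -2.62 and 2.08, *Lag3* at -3.76 and 1.10, and *Ctla4* at -4.75 and -0.72. *Tigit* was not well above background in MSCs and was at least 43.0-fold lower there. RNA of receptors known to restrain T cells was thus higher in the CD8+ T sort for each of these 5 genes. Of the genes of naive and memory T cells, 18 of 21 were lower in MSCs, with a median of -4.38. *Il7r*, the receptor for interleukin 7, differed by -5.98, and *Ccr7*, a homing receptor for lymph nodes, was at -1.37 in MSCs and at 4.43 in CD8+ T cells. *Cd44*, at -0.39 and 0.06, and *Ly6c2*, at 7.73 and 7.53, were level.

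Common leukocyte genes were taken as a check on the CD45 gate. All 21 were at least 2-fold lower in MSCs, with a median of -3.73, and on the Wt arrays 16 of the 21 were, with a median of -1.57. *Ptprc*, which encodes CD45 itself, was at -0.55 in MSCs and at 4.48 in CD8+ T cells. *Coro1a*, a leukocyte actin regulator, was at 3.62 and 7.36. On the Wt arrays *Coro1a* was at 6.18 and 7.44. The summed signal, in units of the 75th percentile signal, was 86.0 in *Sipa1*-/- MSCs, with *Lsp1* brightest, and 881 in *Sipa1*-/- CD8+ T cells, with *Cd52* brightest (chosen after its values were seen). On the Wt arrays the sums were 309 and 911. All 21 were above background on the *Sipa1*-/- MSC array, so leukocyte RNA was lower there but measured. Between the Wt sorts, of 16372 genes tested, 21.3% were at least 2-fold higher in MSCs and 13.0% lower, and at least 8-fold, 7.2% were higher and 2.49% lower.

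B-lineage RNA was low in the *Sipa1*-/- MSC sort beside the Wt MSC sort and was still measured. Of 21 measured B-lineage markers, 4 were at least 2-fold higher in MSCs than in CD8+ T cells and 7 lower (25.5% and 18.2% over all genes). The median was -0.20 and lay between -0.43 and 0.32 over the alternatives. The 4 higher ones were the surrogate light chain genes *Vpreb1*, *Vpreb3* and *Igll1*, together with *Vpreb2*, which was chosen after its value was seen. *Vpreb1* was at 3.45 in MSCs and at -0.08 in CD8+ T cells, *Vpreb3* at 3.57 and 0.43, and *Igll1* at 0.13 and -3.56. These chains are made by pro-B and pre-B cells. Genes that mature B cells carry went the other way. *Cd72* was at -1.73 in MSCs and at 1.79 in CD8+ T cells, and *Fcer2a* at -4.43 and -1.16. *Cd79a* was level, at -2.37 and -2.32, whereas *Cd79b* was at 2.49 and 3.41. Summed over the list, the B-lineage signal was 45.5 in *Sipa1*-/- MSCs and 35.3 in *Sipa1*-/- CD8+ T cells. On the Wt arrays it was 794 and 44.1, and the median difference there was 3.68. The brightest B-lineage gene was *Vpreb3* in *Sipa1*-/- MSCs and *Cd79b* in *Sipa1*-/- CD8+ T cells. All 21 markers were above background in these MSCs and 20 in these CD8+ T cells. What part this RNA had in the other differences was not tested.

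**Figure D2:**
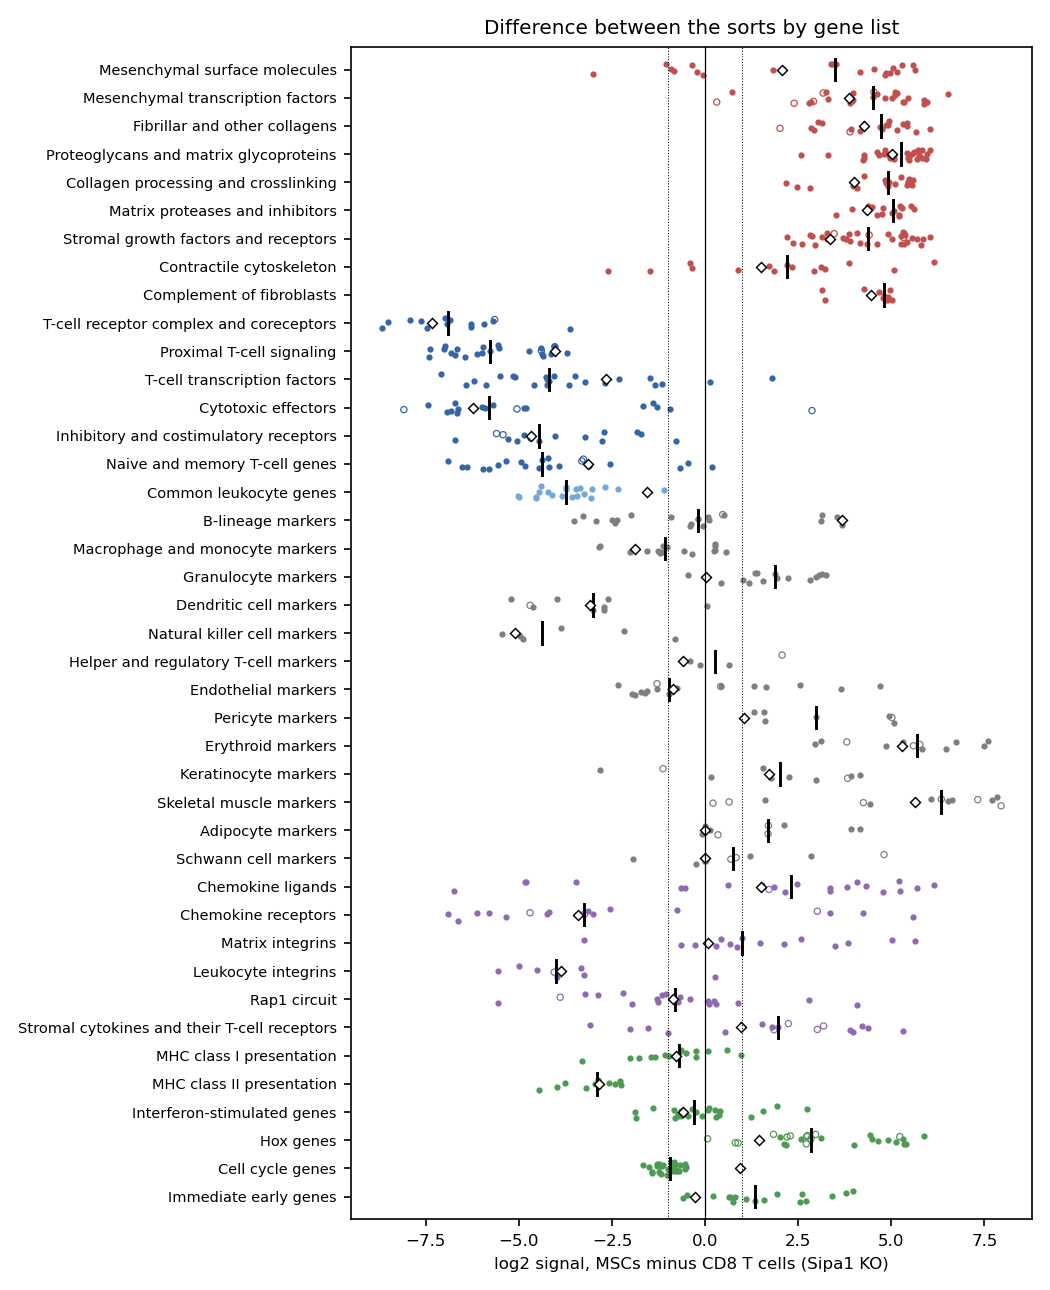
Difference in log2 signal between *Sipa1*-/- MSCs and *Sipa1*-/- CD8+ T cells for each measured member of the 41 gene lists, with open circles for bounds, black bars for the list median, white diamonds for the median of the Wt pair and dotted lines at 2-fold. The B-lineage median was -0.20 in the *Sipa1*-/- pair (0.32 with the deposited series matrix values) and 3.68 in the Wt pair.

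Markers of other cells were measured in the MSC sort. Erythroid genes were at least 2-fold higher in MSCs for 12 of 12, with a median of 5.68, although Ter119+ cells were gated out. With flags passed on both arrays 7 were higher and 1 lower, and with the brightest probe 10 were higher and 1 lower. The lower gene was *Hemgn*, whose 2 probes had differences of -1.02 and 6.90, the second not well above background in CD8+ T cells. The globin gene *Hba-a1* was at 8.39 in MSCs and at 1.93 in CD8+ T cells, and globin genes have close copies that probes may not separate. *Slc4a1*, the anion exchanger of red cells, was at 5.01 and -2.58, and *Alas2*, which starts heme synthesis in red cells, at 3.84 and -3.65. The summed erythroid signal was 399 in MSCs against 5.10 in CD8+ T cells, with *Hba-a1* brightest in both. On the Wt arrays it was 387 and 10.6. The 12 genes were above background in MSCs and 9 of them in CD8+ T cells.

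Skeletal muscle genes were at least 2-fold higher in MSCs for 11 of 13 measured members, with a median of 6.34. Of the 13, 6 were not well above background in CD8+ T cells, and with flags passed on both arrays 7 were higher. The actin gene *Acta1* was at 5.38 in MSCs and at -2.47 in CD8+ T cells, and the troponin gene *Tnnc2* at 6.37 and -1.32. *Ckm*, the creatine kinase of muscle, was at 2.46 in MSCs and was at least 247-fold higher. *Myod1*, a factor that defines the muscle lineage, was near background in MSCs, at -5.28, and not well above it in CD8+ T cells. The summed signal was 218 and 3.97, with *Tnnc2* brightest in MSCs and *Tnni2* in CD8+ T cells. RNA of structural muscle genes was thus measured in the MSC sort with the lineage factor close to background.

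Granulocyte markers were higher in MSCs for 13 of 15, with a median of 1.88. *S100a9*, a calcium-binding protein of neutrophils, was at 8.50 in MSCs and at 7.33 in CD8+ T cells, and its partner *S100a8* at 7.39 and 5.52. *Camp*, a granule antimicrobial peptide gene, was at 6.97 and 3.84. The summed signal was 858 and 343, with *S100a9* brightest in both, and all 15 markers were above background on both arrays. In the Wt pair 4 of the 15 were at least 2-fold higher in MSCs and 1 lower, with a median of 0.03. The summed granulocyte signal there was 761 in MSCs and 658 in CD8+ T cells. Pericyte markers were higher in MSCs for 7 of 7, with a median of 2.97, and the summed signal was 45.7 and 3.59. *Ndufa4l2* was brightest in MSCs, at 5.14 against 0.07, and *Kcnj8* was brightest in CD8+ T cells. The defining gene *Rgs5* was at -0.56 and -3.53.

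Endothelial markers were mixed, with 5 of 18 higher and 8 lower, where 25.5% of all genes were higher and 18.2% lower. Their median of -0.96 turned positive, to 0.42, among genes above the median signal. *Pecam1*, the gene of the gating antigen CD31, was at -2.96 in MSCs and at -1.23 in CD8+ T cells. *Cdh5* was at -2.98 and -2.01. *Tek*, an angiopoietin receptor, was at -0.02 and -4.72, and *Flt1*, a receptor for VEGF, at 3.36 and -0.29. *Pecam1* and *Cdh5*, which define the lineage, were thus below the 75th percentile in both sorts. The summed signal was 18.7 in MSCs, with *Flt1* brightest, and 8.87 in CD8+ T cells, with *Egfl7* brightest (chosen after its values were seen). Of 10 keratinocyte markers 7 were higher in MSCs and 2 lower, with a median of 2.00. *Krt14* was brightest in MSCs, at 0.64 against -3.51, the summed signal was 7.34 and 2.08, and *Epcam* was not well above background in MSCs. Of 9 adipocyte markers 5 were higher and 0 lower, with a median of 1.69 that was 0.13 with flags passed on both arrays, and a summed signal of 9.64 against 1.60. *Lpl* was brightest in MSCs, at 2.84 and -1.32, and *Adipoq*, which defines adipocytes, was at -3.79 in MSCs. Of 8 Schwann cell markers 3 were higher and 1 lower, with a median of 0.76 that lay between 0.04 and 1.32 over the alternatives. *S100b* was brightest in MSCs, the summed signal was 1.26 and 0.675, and *Sox10* was at -3.64 and -4.84. The part that RNA of these other cells had in the stromal differences was not tested.

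Genes of antigen-presenting cells had signal in the CD8+ T sort, although its gate required TCRb and CD8. Genes of MHC class II presentation were at least 2-fold lower in MSCs for 10 of 10, with a median of -2.92. *Cd74*, the invariant chain, was at 4.02 in MSCs and at 6.97 in CD8+ T cells, *H2-Ab1* at 4.59 and 7.02, and *H2-Aa* at 1.64 and 4.83. *Ciita*, the class II transactivator, was at -2.08 and 1.89. The summed signal was 98.1 in MSCs against 602 in CD8+ T cells, with *H2-Eb1* brightest in both (chosen after its values were seen). Dendritic cell markers were lower in MSCs for 8 of 9, with a median between -3.22 and -2.12 over the alternatives. *Clec9a* was at -5.30 and -0.08, and *Flt3* at -2.70 and 1.93, while *Zbtb46* was level, at -3.40 and -3.44. The 2 probes of *Siglech*, chosen after its values were seen, disagreed, with differences of -0.46 and -5.54, the second not well above background in MSCs. Macrophage markers were lower in MSCs for 9 of 16 and higher for 0, with a median of -1.07. With the deposited series matrix values 4 were lower and 1 higher, and with normexp background correction 5 were lower. *Cd68* was at -0.40 and 1.62, *Csf1r* at 1.19 and 1.54, and *Lyz1*, the brightest in both, at 4.12 and 3.86. The summed macrophage signal was 34.6 and 52.8. What part RNA of antigen-presenting cells had in the differences was not tested.

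Natural killer cell markers were lower in MSCs for 5 of 6, with a median of -4.39. *Klre1* was at -4.84 in MSCs and at 0.60 in CD8+ T cells, and the receptor gene *Klra4*, brightest in both, at -2.73 and 2.25. CD8+ T cells can also carry such receptors. *Ncr1*, which defines the lineage, was at -5.10 and -4.29. The summed signal was 0.414 and 9.62. Of the helper and regulatory T-cell markers 4 were measured, 1 of them (*Il4*, a bound, chosen after its value was seen) at least 2-fold higher in MSCs, with a median of 0.26 that lay between -0.14 and 0.78 over the alternatives. *Cd4* was at -2.71 in MSCs and at -2.30 in CD8+ T cells, and *Foxp3*, the factor of regulatory T cells, differed by -0.14. The summed signal was 1.47 and 1.03, with *Zbtb7b* brightest in both. *Cd4* and *Foxp3*, which define these cells, thus differed little between the sorts.

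**Figure D3:**
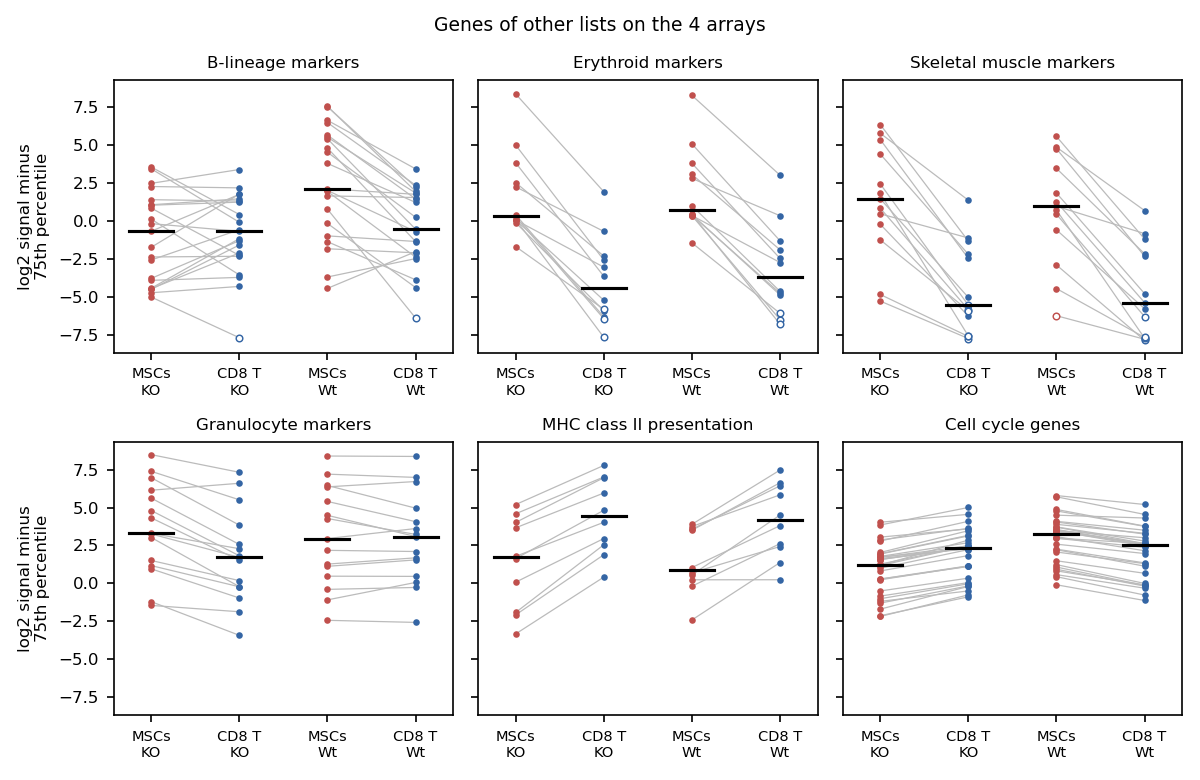
Level of each measured gene of 6 lists on the 4 arrays (log2 signal minus the 75th percentile), with lines joining the sorts of a genotype, open circles for genes not well above background and bars for the median. The median B-lineage difference between MSCs and CD8+ T cells was -0.20 in *Sipa1*-/- (0.32 with the deposited series matrix values) and 3.68 in Wt tumors, and that of cell cycle genes was -0.95 and 0.93.

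Chemokine ligands and receptors lay on opposite sides. Of 22 ligands, 15 were at least 2-fold higher in MSCs and 4 lower, with a median of 2.31. *Cxcl12* was at 4.88 in MSCs and at 0.56 in CD8+ T cells. The interferon-γ-induced ligands *Cxcl9* and *Cxcl10* were at 4.58 against 2.74 and at 3.77 against 1.61. *Cxcl1*, a ligand that attracts granulocytes, had the largest difference, at 5.50 and -0.64, followed by *Cxcl5*, at 2.57 and -3.12, and *Ccl11*, at 5.29 and 0.06. *Cxcl16* was nearly level, at 1.23 and 0.60. The ligands made by activated T cells were lower in MSCs, with *Ccl5* at 3.32 and 8.14, *Ccl4* at -0.09 and 4.75, and *Xcl1* at -3.71 and 3.05.

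Of 17 chemokine receptors, 4 were higher in MSCs and 12 lower, with a median of -3.24. *Cxcr3*, the receptor for Cxcl9 and Cxcl10, was at -1.83 in MSCs and at 5.08 in CD8+ T cells. *Cxcr6*, the receptor for Cxcl16, was at -1.96 and 4.67. *Cxcr4*, the receptor for Cxcl12, was at -2.70 and -0.14. The receptors higher in MSCs were atypical ones that bind chemokines without classical signaling. *Ackr3*, which binds Cxcl12, was at 5.18 and -0.40, and *Ackr1* at 2.20 and -2.05. *Ackr2*, by its probe above background on both arrays, was at 1.01 and -2.18. *Ackr4*, a bound chosen after its value was seen, was the other.

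Cytokines that act on T and myeloid cells were higher in MSCs for 12 of 17 and lower for 3, with a median of 1.96 that lay between 0.50 and 3.45 over the alternatives. *Il6* was at 2.21 in MSCs and at -3.09 in CD8+ T cells, *Il33* at 2.60 and -1.76, and *Csf1*, the growth factor of macrophages, at 3.42 and -0.46. *Il15* was at 0.68 and -0.84. *Il7*, which keeps T cells alive, was at least 4.71-fold higher in MSCs, where its level was -3.25, and *Kitl* at least 8.07-fold higher. The 3 lower genes were the PD-1 ligands *Cd274*, at -0.71 and 1.30, and *Pdcd1lg2*, at -3.07 and 0.01, and *Tgfb1*, at -1.46 and 0.08.

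Integrins are adhesion receptors for matrix or for other cells. Of 15 integrins for matrix, 7 were higher in MSCs, 1 was lower and 7 were within 2-fold, with a median of 0.99. *Itga11*, a collagen receptor chain of fibroblasts, was at 5.67 in MSCs and at 0.05 in CD8+ T cells, and *Itgb5* at 5.48 and 0.47. *Itgav* was at 3.48 and 1.35 and *Itga5*, the fibronectin receptor chain, at 0.02 and -3.46, while *Itgb1*, the shared beta chain, was level at 3.63 and 3.35. *Itga6* was the 1 lower member, by -3.25 and -3.16 for its 2 probes above background on both arrays. Of 8 leukocyte integrins 7 were lower in MSCs and 0 higher, with a median of -4.02. *Itgal* was at -1.79 in MSCs and at 2.73 in CD8+ T cells, *Itgb2* at 0.70 and 3.96, and *Itgb7* at 1.07 and 6.05. The Rap1 circuit, which controls integrin adhesion and holds the target of Sipa1, was lower in MSCs for 10 of 21 and higher for 2, with a median of -0.81. *Rap1a* was at 2.05 and 2.73 and *Rap1b* at 3.55 and 4.36. The exchange factor gene *Rasgrp1*, which couples antigen receptors to Ras proteins, was at -3.17 and 2.40, and *Rassf5*, a Rap1 effector in lymphocyte adhesion, at -1.85 and 1.39. The 2 higher members were *Radil*, at 0.14 and -3.94, and *Rapgef3*, at -0.16 and -2.94. *Apbb1ip* was at 3.03 and 3.76.

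Antigen presentation by MHC class I is shared by nearly all cells. Of 15 genes, 6 were at least 2-fold lower in MSCs and 0 higher, with a median of -0.69 that lay between -0.91 and 0.09 over the alternatives. *B2m* was at 7.17 in MSCs and at 7.40 in CD8+ T cells, and *Tapbp*, a loading factor, differed by 0.08, while *Tap1*, a peptide transporter, was at 2.09 and 3.54 and the transactivator gene *Nlrc5* at -1.29 and 2.02. Of 24 interferon-stimulated genes, 4 were higher and 3 lower, with a median of -0.31 that lay between -0.53 and 0.22 over the alternatives. *Irf7* was at 2.44 in MSCs and at 2.98 in CD8+ T cells, *Isg15* at 4.77 and 3.54, and *Rsad2* at -0.33 and -3.06. With medians that changed sign with the scaling, neither list is read as higher or lower in a sort.

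Cell cycle genes were lower in MSCs for 14 of 30 and higher for 0, with a median of -0.95 and values between -0.42 and -1.17 over the alternatives. *Top2a* was at 1.27 in MSCs and at 2.49 in CD8+ T cells, *Mcm2* at 0.82 and 1.83, *Mki67* at 4.03 and 4.56, and *Ccnb1* at -1.19 and -0.50. The count of 14 was 23 with the array median as scale and 1 with the deposited series matrix values, and no gene of the 30 differed by 8-fold. In the Wt pair 10 of the 30 reached 2-fold toward MSCs and 0 toward CD8+ T cells, with a median of 0.93. Summed B-lineage signal was 794 in Wt MSCs and 45.5 in *Sipa1*-/- MSCs, and that of common leukocyte genes was 309 and 86.0. What part such RNA had in the cell cycle differences was not tested. Immediate early genes were higher in MSCs for 10 of 17 and lower for 0, with a median of 1.33. *Fos* was at 6.21 in MSCs and at 3.68 in CD8+ T cells, *Egr1* at 5.11 and 1.32, *Jun* at 6.41 and 4.83, and *Klf4* at 5.84 and 1.87. Genes of this kind respond quickly to stimulation of a cell. In the Wt pair 3 of the 17 were higher in MSCs and 3 lower, with a median of -0.28.

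Among 7310 genes that passed every flag on both arrays with the brighter array above its 75th percentile, the 10 largest differences toward MSCs were those of *Myh8* (8.52), *Acta1* (7.85), *Apol11b* (7.81), *Tnnc2* (7.69), *Slc4a1* (7.59), *Alas2* (7.49), *Rhd* (7.34), *Hbb-b2* (7.33), *Hbb-b1* (7.30) and *Cyp2f2* (7.28). Of these 10, 8 are muscle, heme, globin or red cell membrane genes. *Myh8* is a myosin of skeletal muscle, and *Rhd* encodes a blood group membrane protein. The 10 largest differences toward CD8+ T cells were those of *Cd8b1* (-8.67), *Nsg2* (-8.20), *Lcn4* (-8.05), *Cd3g* (-7.94), *Sidt1* (-7.87), *Cd96* (-7.63), *Cd3d* (-7.47), *Ctsw* (-7.43), *Txk* (-7.40) and *Dapl1* (-7.32). *Ctsw* is a protease of cytotoxic cells and *Txk* a kinase of T cells. *Nsg2* was at -4.02 in MSCs and at 4.17 in CD8+ T cells and *Lcn4* at -5.31 and 2.73.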

How the data were processed

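RNA of 4 sorts was measured on Agilent 1-colour arrays, 1 array for each group. The authors deposited processed signal intensities from Agilent Feature Extraction (9.1 per the labels, 12.0.3.1 per the file headers), which are background-corrected and linear. The deposited series matrix holds these intensities times 1 constant per array, with medians of 52.0 (*Sipa1*-/- MSCs), 30.9 (*Sipa1*-/- CD8+ T cells), 41.0 (Wt MSCs) and 25.5 (Wt CD8+ T cells), and how the constants were set is not known. Control spots were left out, log2 signals were centred on the 75th percentile of each array, and probes that passed flags on at least 1 of the 2 arrays were kept. RefSeq (GRCm38.p6) gave symbols for 57.6% of non-control spots, and the rest were left out. Probes of a gene were averaged, dim probes included, and of 248 listed genes with several probes 3 (*Hemgn*, *Mylpf*, *Trp63*) had probes at least 2-fold higher and others at least 2-fold lower in MSCs. Members and the 41 lists (723 genes) were chosen with earlier results of these data known. Named genes are *Sipa1*, the core genes of each list, its 3 largest differences in each direction measured above background on both arrays, stromal or T-cell list members at least 2-fold against their list, and the 10 largest differences of all genes in each direction. Alternatives changed the flags, the scale, the background correction (normexp, offset 50), the probe rule, the signal minimum and the bound. No test was run. The code was tested on simulated data. Software was R 4.3.3 with limma 3.58.1, and Python 3.11.15 with pandas 2.3.3, numpy 2.4.6, matplotlib 3.10.9 and scipy 1.17.1.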

Additional observations from a re-analysis of the deposited data

Results flagged for a closer look

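The 4 arrays give each difference between MSCs and CD8+ T cells once in *Sipa1*-/- and once in Wt tumors, and results are given here where a list median had opposite signs in the genotypes or a core gene of a list was at least 2-fold higher in one and at least 2-fold lower in the other. List members outside the core were not screened in this way, and some of them also differed by at least 2-fold in opposite directions. Of the 41 list medians 4 met this, and of the core genes 1. The B-lineage median was -0.20 in *Sipa1*-/- and 3.68 in Wt tumors, and in the *Sipa1*-/- pair it was 0.32 with the deposited series matrix values. For helper and regulatory T-cell markers, of which 4 were measured, the median was 0.26 and -0.59, and the first of these was -0.14 with flags passed on both arrays. Cell cycle genes had a median of -0.95 in *Sipa1*-/- tumors against 0.93 in Wt tumors. Immediate early genes had 1.33 against -0.28. *Irf4*, a transcription factor of lymphocytes, B-lineage cells among them, differed by -1.17 in *Sipa1*-/- and by 2.11 in Wt tumors. With 1 array for each group the difference was not tested for any of these lists or for *Irf4*. What part B-lineage RNA had in the *Irf4* values was not tested either.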

How the results depend on the processing

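No paired analysis was possible because each group has 1 array and nothing in the labels pairs an array of one sort with an array of the other beyond the replicate number. Counts below are members at least 2-fold higher or lower in MSCs, with the reported count in parentheses, and a count is printed where it moved past 1.5 times. Without flags and with quantile normalization all 90 counts stayed within 1.5 times, and 36 of 41 list medians kept their sign under every alternative. With flags passed on both arrays, fewer genes are tested, and the members higher were all T-cell lists 1 (from 2), cytotoxic effectors 0 (from 1), helper T-cell 0 (from 1), erythroid 7 (from 12), skeletal muscle 7 (from 11), adipocyte 2 (from 5) and Hox genes 14 (from 24), and those lower were erythroid 1 (from 0). With the array median as scale, the members lower were surface molecules 4 (from 2), interferon-stimulated genes 5 (from 3) and cell cycle genes 23 (from 14). With the deposited series matrix values, genes lower numbered 1607 (from 3028), the members lower were all stromal lists 2 (from 4), surface molecules 1 (from 2), contractile genes 1 (from 2), macrophage 4 (from 9), keratinocyte 1 (from 2), Rap1 circuit 6 (from 10), MHC class I 3 (from 6) and cell cycle genes 1 (from 14), and those higher were macrophage 1 (from 0), helper T-cell 2 (from 1), Schwann cell 5 (from 3) and MHC class I 2 (from 0). With normexp, genes at least 2-fold higher in MSCs numbered 2790 (from 4245), genes at least 8-fold higher in MSCs 745 (from 1754), genes at least 2-fold lower in MSCs 1933 (from 3028) and genes at least 8-fold lower in MSCs 302 (from 588). The members higher were then all T-cell lists 1 (from 2), cytotoxic effectors 0 (from 1), helper T-cell 0 (from 1), adipocyte 3 (from 5), Schwann cell 1 (from 3), cytokines 7 (from 12) and Hox genes 13 (from 24), and those lower were surface molecules 1 (from 2), macrophage 5 (from 9), endothelial 5 (from 8) and keratinocyte 1 (from 2). With the brightest probe of a gene, the members lower were erythroid 1 (from 0), and those higher were MHC class I 1 (from 0). Restricting to genes above the median signal left 8312 genes, which by construction lowers counts, with genes at least 2-fold higher at 1540 (from 4245), at least 8-fold higher at 670 (from 1754), at least 2-fold lower at 1564 (from 3028) and at least 8-fold lower at 282 (from 588). The members higher were then all T-cell lists 1 (from 2), mesenchymal factors 9 (from 26), growth factors 19 (from 34), contractile genes 6 (from 10), cytotoxic effectors 0 (from 1), helper T-cell 0 (from 1), endothelial 2 (from 5), pericyte 3 (from 7), erythroid 5 (from 12), keratinocyte 1 (from 7), skeletal muscle 5 (from 11), adipocyte 1 (from 5), Schwann cell 0 (from 3), chemokine receptors 2 (from 4), matrix integrins 3 (from 7), Rap1 circuit 0 (from 2), cytokines 4 (from 12), interferon-stimulated genes 2 (from 4) and Hox genes 5 (from 24). Those lower were all T-cell lists 70 (from 106), surface molecules 1 (from 2), T-cell signaling 15 (from 23), inhibitory receptors 7 (from 14), B-lineage 2 (from 7), dendritic cell 3 (from 8), natural killer cell 1 (from 5), endothelial 2 (from 8), keratinocyte 0 (from 2), Schwann cell 0 (from 1), chemokine receptors 6 (from 12), matrix integrins 0 (from 1) and leukocyte integrins 4 (from 7). With measured differences in place of bounds, an alternative chosen after seeing the data, the members higher were Schwann cell 5 (from 3). The array median and the series matrix values shift all genes together, so genes with differences near 0 can change sign under them, and such changes are not listed. Beyond such shifts, a few single genes changed direction. *Hemgn* (2.94) was at -1.02, *Hoxb3* (2.12) at -0.091 and *Trp63* (1.55) at -1.48, each both with flags on both arrays and with the brightest probe. *Trp63* was at -0.38 with normexp, and *Acta2* (2.33) at -0.73 with the brightest probe. Beyond the smaller number of genes tested with flags on both arrays and above the median signal, the cause was not tested. Signal at the 75th percentile was 19.1 times background for *Sipa1*-/- MSCs and 16.4 times for *Sipa1*-/- CD8+ T cells (19.7 and 18.0 in Wt), and genes not well above background on 1 array are given as bounds.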
